A study of Mus musculus with 6 samples.

Results

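Among 10 genes of the mouse E2F family and its pocket proteins, Mdr1+ effector T cells had less transcript of the atypical repressors E2f8 and E2f7 and of the activator E2f2 than Mdr1- cells, while the groups overlapped for E2f4, E2f5 and the pocket protein gene Rbl2. E2f8 had a mean of 4.18 ± 0.63 CPM (counts scaled to library size) in Mdr1+ cells, against 41.8 ± 14.7 CPM in Mdr1- cells (SD over 3 libraries a group). The 10 genes were E2f1 to E2f8, Rbl1 and Rbl2, chosen by name among the 23366 genes of the count table, and all 10 passed the filter on low counts that left 10897 genes for testing. Both groups were CD4+ effector T cells, sorted from mesenteric lymph nodes 6 weeks after T cells were given to Rag-deficient hosts, animals that lack lymphocytes of their own. Mdr1+ cells had little of the fluorescent dye rhodamine 123, which the transporter Mdr1 pumps out of cells, and Mdr1- cells retained it. Each group had 3 libraries, the labels give the background FVB/N for both, and neither the age of the mice nor any pooling of animals is stated there. The labels do not say that replicates came from separate animals, and p-values therefore reflect only how these libraries vary, which may be technical.

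E2F proteins bind DNA with a DP partner and set when genes of DNA replication and division are transcribed. E2f1, E2f2 and E2f3 encode activators, E2f4 and E2f5 encode factors that repress together with pocket proteins in resting cells, E2f6 encodes a repressor that needs no pocket protein, and E2f7 and E2f8 encode atypical repressors that bind DNA without a DP partner and accumulate in S phase. The pocket proteins encoded by Rbl1 and Rbl2 bind E2F factors until cyclin-dependent kinases phosphorylate them, and Rbl2 with E2f4 and the MuvB proteins forms the DREAM repressor of resting cells. In T cells the activator genes are induced when a resting cell enters the cell cycle.

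The libraries held 2220691 to 20771456 counts in genes. Mdr1+ replicate 3 was the shallowest and was set off from all others along the first principal component of log2 CPM, a component that carried 59.2% of the variance. In both replicate 3 columns the deposited row order did not match the gene names, and counts were reassigned to the names in an order that ignores case. With the columns as deposited, 0 of all genes passed in edgeR (100 lower and 8 higher at an unadjusted p under 0.05). Each result below that uses replicate 3 therefore rests on that reassignment. Only the fits without replicate 3 of both groups do not use it. The sort was checked on Abcb1a, a gene of Mdr1, whose mean was 162 CPM in the Mdr1+ group and 62.8 CPM in the Mdr1- group. Of 10 genes of T cell identity 0 passed the test in either direction, also with the replicate number in the model, and their summed level was 4790 to 6033 CPM in Mdr1+ and 4717 to 5423 CPM in Mdr1- libraries. The 7 myeloid markers summed to 12.0 to 24.1 CPM in Mdr1+ and 10.9 to 101 CPM in Mdr1- libraries, with the highest sum in Mdr1- replicate 3. The 8 dendritic cell markers summed to 24.4 to 53.3 CPM in Mdr1+ and 63.6 to 93.4 CPM in Mdr1- libraries. Cd74 made up most of each of these sums, with means of 25.3 CPM in Mdr1+ and 53.8 CPM in Mdr1- libraries. The groups did not overlap for Cd74, H2-Ab1 and Itgax, each lower in Mdr1+, and overlapped for the other dendritic markers. The 7 B cell markers summed to 11.5 to 22.8 CPM in Mdr1+ and 7.14 to 11.3 CPM in Mdr1- libraries. The 2 CD8 markers summed to 0 to 1.495 CPM in Mdr1+ and 1.34 to 2.21 CPM in Mdr1- libraries. The 7 stromal and endothelial markers summed to 117 to 191 CPM in Mdr1+ and 125 to 136 CPM in Mdr1- libraries, with Pdgfra and Pdpn at 0 throughout. Most of each sum was Pecam1, with means of 140 CPM in Mdr1+ and 122 CPM in Mdr1- libraries. Among these markers Acta2, a smooth muscle actin, fell, at 0.0935 CPM in the Mdr1+ group and 4.94 CPM in the Mdr1- group. Cdh5 was at 0.377 CPM in the Mdr1+ group and 2.02 CPM in the Mdr1- group, without overlap, and did not pass (adjusted p = 0.116 in edgeR). Col1a2 lay the other way, at 0.315 CPM in the Mdr1+ group and 0.066 CPM in the Mdr1- group, too low to be tested. The 4 neutrophil markers summed to 0 CPM in Mdr1+ and 0 to 1.87 CPM in Mdr1- libraries with Csf3r at 0, the 4 epithelial markers to 2.82 to 10.8 CPM in Mdr1+ and 3.24 to 7.98 CPM in Mdr1- libraries with Krt8 at 0, and the 4 erythroid markers to at most 0.332 CPM in any library with Hba-a1 and Hbb-b1 at 0. The part of such cells in the results below was not tested. In sorted bulk cells, fewer cells of a kind and less RNA per cell cannot be told apart.

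Start-site sequence was looked at because members of the family are themselves known to be E2F-regulated genes. RefSeq start sites on the build GRCm38.p6 were at hand for 8 of the 10 genes, which does not include E2f4 and E2f5. The 250 bases before each start were searched on both strands for the E2F consensus, TTT followed by 2 bases that are each C or G and then CGC, and for the CHR element of late cell cycle genes, TTTGAA or TTCGAA. The windows of E2f7, Rbl1 and the first of 2 starts of E2f3 held the E2F consensus, which 1.86% of 32851 such windows did. The windows of E2f8, Rbl2, the first start of E2f3 and the second start of E2f2 held a CHR element, which 17.1% of all windows did. The second start of E2f3 held neither. Counted by gene with any of its starts, 2.16% of 27025 genes held the E2F consensus and 19.6% a CHR element. The sequences below are those of both atypical genes, of the first start of E2f3, which had both elements, and of Rbl1. Of the genes with the E2F consensus in these windows, E2f7 passed the test by group described below, and E2f3 and Rbl1 did not. All run 5′ to 3′ on the gene's strand, and capitals mark the matches.
E2f8, chr7:48881597-48881846, minus strand: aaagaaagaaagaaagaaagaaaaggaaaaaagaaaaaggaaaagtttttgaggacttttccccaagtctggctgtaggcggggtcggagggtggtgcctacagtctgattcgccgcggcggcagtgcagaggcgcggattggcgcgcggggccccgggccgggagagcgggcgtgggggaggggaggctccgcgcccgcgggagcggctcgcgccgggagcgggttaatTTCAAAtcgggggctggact
E2f7, chr10:110745189-110745438, plus strand: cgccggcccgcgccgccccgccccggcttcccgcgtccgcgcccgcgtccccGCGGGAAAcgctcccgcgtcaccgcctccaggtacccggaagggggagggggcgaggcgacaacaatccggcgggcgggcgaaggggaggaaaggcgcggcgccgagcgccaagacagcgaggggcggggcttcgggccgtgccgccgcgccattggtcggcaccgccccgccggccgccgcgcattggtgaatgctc
E2f3, chr13:29986064-29986313, minus strand: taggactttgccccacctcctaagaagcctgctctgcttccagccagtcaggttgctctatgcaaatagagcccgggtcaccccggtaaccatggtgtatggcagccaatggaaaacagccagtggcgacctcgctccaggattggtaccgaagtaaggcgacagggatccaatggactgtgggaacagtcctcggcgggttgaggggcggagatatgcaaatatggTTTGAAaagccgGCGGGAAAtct
Rbl1, chr2:157204535-157204784, minus strand: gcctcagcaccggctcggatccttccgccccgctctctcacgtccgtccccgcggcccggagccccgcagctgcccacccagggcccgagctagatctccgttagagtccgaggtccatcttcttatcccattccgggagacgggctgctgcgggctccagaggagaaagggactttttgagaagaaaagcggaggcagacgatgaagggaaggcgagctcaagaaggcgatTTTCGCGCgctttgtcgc
The E2f8 window had its CHR element on the opposite strand, beginning 20 bases before the start, and no E2F consensus. At the first start of E2f3 a CHR element beginning 23 bases before the start was followed by an E2F consensus on the opposite strand beginning 11 bases before it. The E2F consensus of E2f7 began 198 bases and that of Rbl1 18 bases before the start. The RefSeq start of E2f1 lies 294 bases, and the second start of E2f2 8388 bases, downstream of the nearest GENCODE start of the gene, so neither window is the region before a GENCODE start. The window of the first E2f2 start held neither element. That start lies upstream of the nearest GENCODE start, and a window of 300 bases that reached past it held 1 E2F consensus. Of all windows of that length 2.26% held one. A match is a string of letters and was not tested for binding, and a window without one says nothing about the factor.

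Fold changes below are Mdr1+ over Mdr1- from edgeR's quasi-likelihood test, with p-values adjusted by the Benjamini-Hochberg method over all 10897 genes and a threshold of 0.05. Of the 10 genes 3 fell in Mdr1+ cells and 0 rose, where over all tested genes 1.95% fell and 0.275% rose. With the replicate number as a block in the model 5 of the 10 fell and 0 rose, against 6.57% and 5.81% of all genes. With that block and without replicate 1, 2 or 3 of both groups, 5, 3 and 4 fell; without replicate 2 the calls of E2f1 and E2f3 were lost (adjusted p = 0.119 and 0.125 in edgeR), without replicate 3 that of E2f2 (0.0943), and without replicate 1 that of E2f3 (0.0504), while Rbl1 passed (0.0016). In 7 of the 10 genes the groups did not overlap, each time with the Mdr1+ libraries lower, where 19.7% of all genes had no overlap, 11% with Mdr1+ lower and 8.71% with Mdr1+ higher. The same 7 were lower, and E2f5 was higher, in all 3 replicate numbers, where 24.6% of all genes were lower and 28.2% higher in all 3. The median log2 fold change was -0.67 over the 10 genes and 0.04 over all tested genes. The count of 3 was 1 without Mdr1+ replicate 3, without Mdr1- replicate 3 or without replicate 2 of both groups, and it was 0 without replicate 3 of both groups, a fit in which 0 of all genes passed in edgeR (667 lower and 237 higher at an unadjusted p under 0.05). Of the 10 genes 5 were lower at an unadjusted p under 0.05 in that fit.

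**Figure D1:**
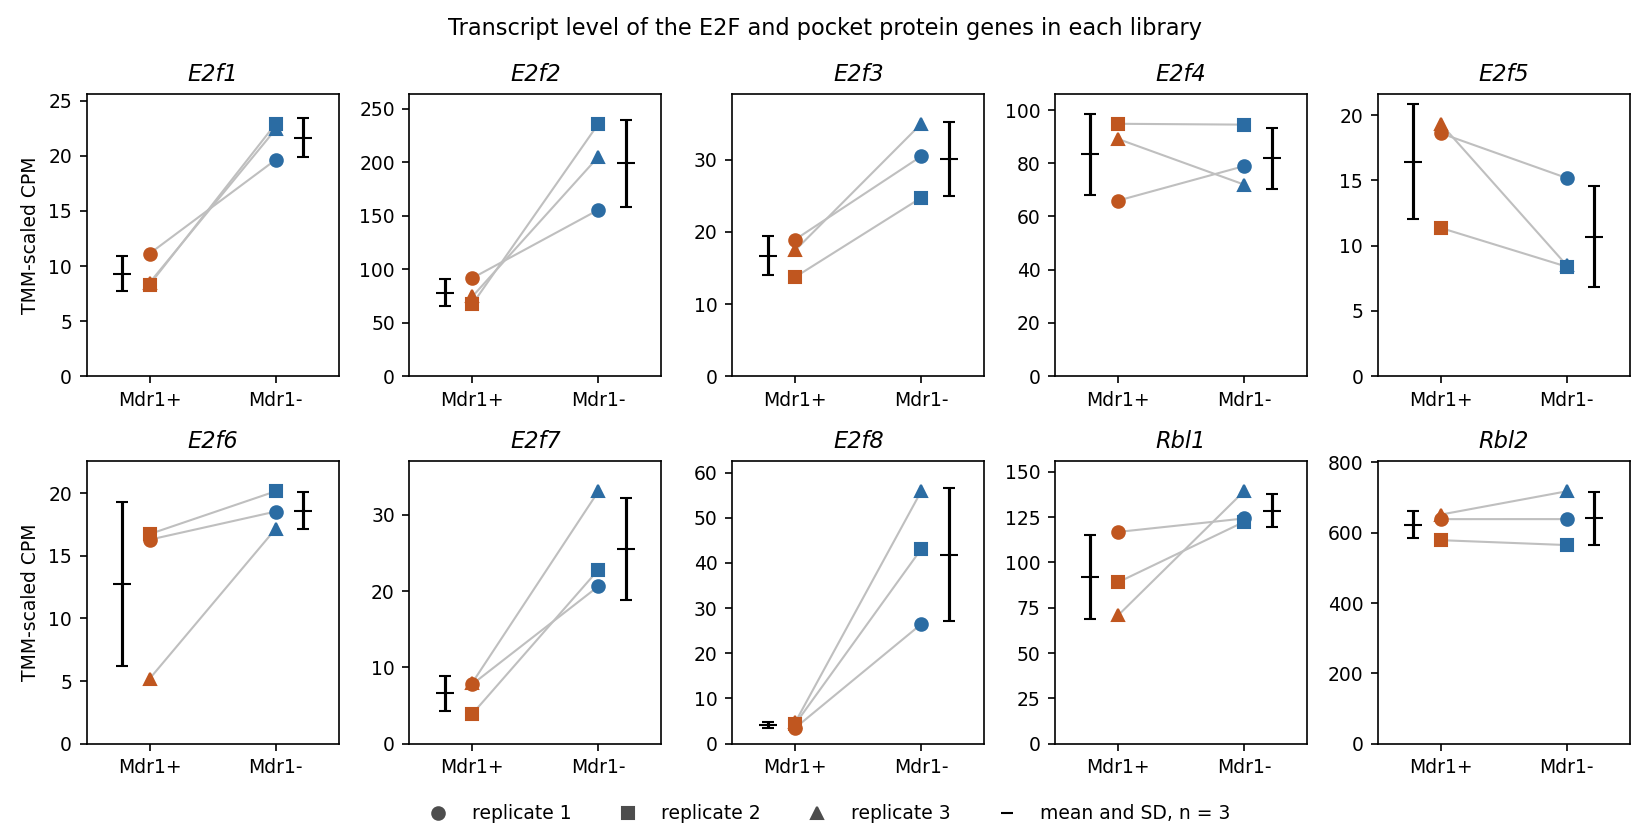
TMM-scaled CPM (y axis, linear from 0, one scale per gene) of the 10 genes in Mdr1+ libraries (left) and Mdr1- libraries (right); each symbol is a library, lines in grey connect equal replicate numbers, and mean and SD (n = 3) are drawn in black. The groups do not overlap in 7 genes and overlap in E2f4, E2f5 and Rbl2. In E2f6 and Rbl1 the gap is narrow, from 16.7 to 17.1 CPM and from 117 to 122 CPM.

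The activator genes were lower in each Mdr1+ library than in any Mdr1- library. E2f2 had 91.7, 67.4 and 74.5 CPM in Mdr1+ replicates 1, 2 and 3, against 155, 236 and 205 CPM in the Mdr1- replicates (TMM-scaled, as are the values that follow). It fell by 1.35 ± 0.21 on the log2 scale (SE), with an adjusted p of 0.0127 in edgeR's quasi-likelihood test. E2f1, which encodes the activator best known for driving entry into S phase, had 11.1, 8.32 and 8.49 CPM in Mdr1+ replicates, against 19.6, 22.9 and 22.4 CPM in Mdr1- replicates. The spread within each group was small beside the gap, and the log2 fold change of -1.21 ± 0.26 lay just outside the threshold (adjusted p = 0.0505 in edgeR) and passed with the replicate block (-1.22, adjusted p = 0.0119) and in DESeq2 (adjusted p = 0.00185). E2f3 had 18.9, 13.7 and 17.4 CPM in Mdr1+ and 30.5, 24.7 and 35.0 CPM in Mdr1- replicates. Its log2 fold change of -0.86 ± 0.25 did not pass (adjusted p = 0.156 in edgeR), and with the block it did (-0.83, adjusted p = 0.0179). The E2f2 call was lost without Mdr1+ replicate 3 (adjusted p = 0.0662 in edgeR), without Mdr1- replicate 3 (0.074), without replicate 2 of both groups (0.102) and without replicate 3 of both groups (0.281), while its log2 fold change stayed between -1.71 and -1.11 in all 9 fits that left libraries out.

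The atypical repressor genes had the largest differences of the family. E2f8 had 3.49, 4.35 and 4.72 CPM in Mdr1+ replicates 1, 2 and 3, against 26.5, 43.1 and 55.9 CPM in the Mdr1- replicates. These rest on 21, 93 and 10 counts in Mdr1+ and 237, 498 and 329 counts in Mdr1- libraries. The Mdr1+ libraries were close to each other and the Mdr1- libraries spread more widely, with replicate 1 lowest. E2f8 fell by 3.33 ± 0.34 on the log2 scale (SE) with an edgeR adjusted p of 0.00366, the 17th lowest fold change of the 10897 genes, and the log2 ratios within replicate numbers 1, 2 and 3 were -2.92, -3.31 and -3.57. E2f7 had 7.81, 3.93 and 8.02 CPM in Mdr1+ replicates, against 20.6, 22.8 and 33.1 CPM in Mdr1- replicates. It fell by 2.03 ± 0.37 on the log2 scale (SE) with an edgeR adjusted p of 0.0243, and its Mdr1+ mean was 25.8% of the Mdr1- mean. Without the shallow Mdr1+ replicate 3 the log2 fold change of E2f8 was -3.39 (adjusted p = 0.0289 in edgeR). Exons of E2f8 overlap those of Gm2788 on the opposite strand, a gene not analysed here. The E2f8 call held in 8 of 9 fits that left libraries out, the exception being the fit without replicate 3 of both groups (log2 fold change -3.16, adjusted p = 0.172 in edgeR). The E2f7 call held in 3 of those 9. It was lost without Mdr1+ replicate 2 (adjusted p = 0.0572 in edgeR), Mdr1+ replicate 3 (0.0505), Mdr1- replicate 3 (0.148), and without replicate 1, 2 or 3 of both groups (0.0905, 0.148 and 0.218), with log2 fold changes of -2.40 to -1.69.

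The factors that work with pocket proteins in resting cells did not pass the test in either fit. E2f4, the most abundant E2F of most resting cells, had 66.0, 94.8 and 89.1 CPM in Mdr1+ replicates, against 78.9, 94.5 and 72.0 CPM in Mdr1- replicates. The groups overlapped, with a log2 fold change of 0.02 and a 95% interval of -0.42 to 0.47 (adjusted p = 0.977 in edgeR), and its sign turned in several fits that left libraries out. E2f5 had 18.6, 11.4 and 19.3 CPM in Mdr1+ and 15.2, 8.39 and 8.49 CPM in Mdr1- replicates, higher in the Mdr1+ library of each number. Its log2 fold change was 0.59 with a 95% interval of -0.21 to 1.40 (adjusted p = 0.591 in edgeR, 0.179 with the block). In GENCODE the exons of E2f5 overlap those of 1810022K09Rik on the opposite strand, a gene at 3.93 ± 3.75 CPM in the Mdr1+ group and 3.10 ± 0.99 CPM in the Mdr1- group (SD over 3 libraries), and how strand was treated in counting is not given in the sources used here. E2f6, whose product represses with a Polycomb-type complex, had 16.3, 16.7 and 5.19 CPM in Mdr1+ and 18.5, 20.1 and 17.1 CPM in Mdr1- replicates. The Mdr1+ libraries were lower throughout, replicate 3 with 11 counts lay lowest, and the log2 fold change of -0.48, or -0.19 without that library, had a 95% interval of -1.33 to 0.37 (adjusted p = 0.695 in edgeR, 0.261 with the block).

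The pocket protein genes did not pass in the fit by group or in the fit with the block over all libraries. Rbl1, whose transcript is known to rise in cycling cells, had 117, 89.0 and 70.7 CPM in Mdr1+ replicates, against 124, 122 and 139 CPM in Mdr1- replicates. The groups did not overlap, and within numbers the ratio ran between near equality in replicate 1 and a log2 ratio of -0.98 in replicate 3. Its log2 fold change was -0.47 ± 0.20 (SE, adjusted p = 0.396 in edgeR, 0.076 with the block over all 3 numbers). Rbl2, a component of DREAM in resting cells, had the highest CPM of the 10 genes, with 639, 579 and 652 CPM in Mdr1+ and 639, 565 and 718 CPM in Mdr1- replicates. The groups overlapped fully, and the log2 fold change of -0.04 had a 95% interval of -0.42 to 0.34 (adjusted p = 0.958 in edgeR, 0.825 with the block). Exons of Rbl2 overlap those of Aktip and Gm45464 on the opposite strand. Aktip was at 11.8 ± 3.3 CPM in the Mdr1+ group and 7.62 ± 1.62 CPM in the Mdr1- group (SD over 3 libraries), and Gm45464 was not analysed here. In an exact permutation test of the CPM values (two-sided), p was 0.1, the smallest that 3 against 3 libraries allow, for each of the 7 genes without overlap, and 0.9, 0.2 and 0.9 for E2f4, E2f5 and Rbl2.

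**Figure D2:**
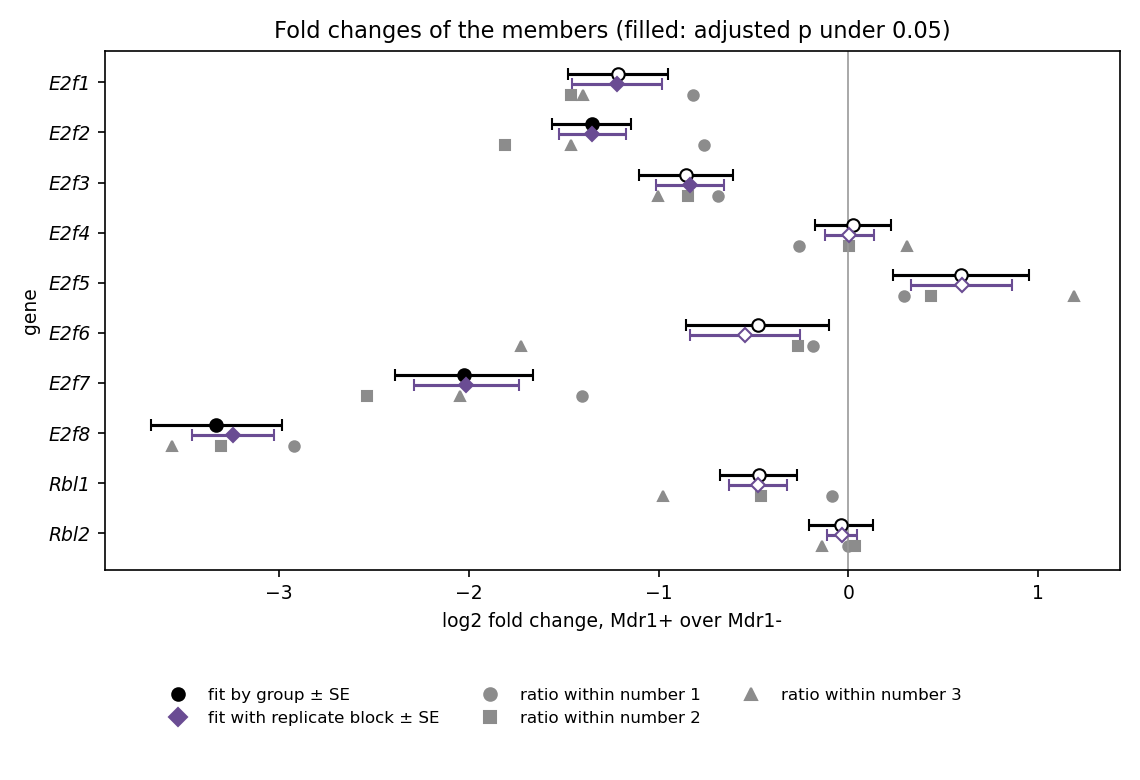
Log2 fold change of Mdr1+ over Mdr1- (x axis) for each gene (y axis); black circles are the fit by group and purple diamonds the fit with the replicate block, both ± SE and filled where the adjusted p is under 0.05, and grey symbols are the ratios within each replicate number. E2f8 lies lowest at -3.33, and E2f4 and Rbl2 lie at 0.02 and -0.04.

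Because both genes of a ratio are read in the same library, ratios of counts between family members do not depend on the scaling of libraries. The log2 ratio of E2f8 to E2f4 counts was -4.27 ± 0.14 in Mdr1+ and -1.02 ± 0.61 in Mdr1- libraries (SD, n = 3 each), a difference of -3.25. That of E2f7 to E2f4 was -3.70 ± 0.79 in Mdr1+ and -1.70 ± 0.51 in Mdr1- libraries, and that of E2f1 to E2f4 was -3.14 ± 0.51 and, in Mdr1- libraries, -1.91 ± 0.20. The E2f8 counts were below those of E2f1 in each Mdr1+ library (mean log2 ratio -1.13 ± 0.45) and above them in each Mdr1- library (0.88 ± 0.44), and its log2 ratio to E2f7 was -0.58 ± 0.66 in Mdr1+ and 0.67 ± 0.29 in Mdr1- libraries. Between the pocket protein genes, Rbl1 to Rbl2 had a log2 ratio of -2.78 ± 0.38 in Mdr1+ and -2.31 ± 0.09 in Mdr1- libraries. Between activators, E2f2 to E2f3 had 2.21 ± 0.12 and, in Mdr1- libraries, 2.72 ± 0.47. The E2f2 to E2f3 ratios were barely apart, with 2.29 as the highest in Mdr1+ and 2.35 as the lowest in Mdr1- libraries. These 7 pairs were picked after the values of the genes were seen, and most set a lowered gene against one that was less so, so they restate the levels above and are given with no test. The groups did not overlap in any of the 7, nor in 64.4% of all 45 pairs of the 10 genes.

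**Figure D3:**
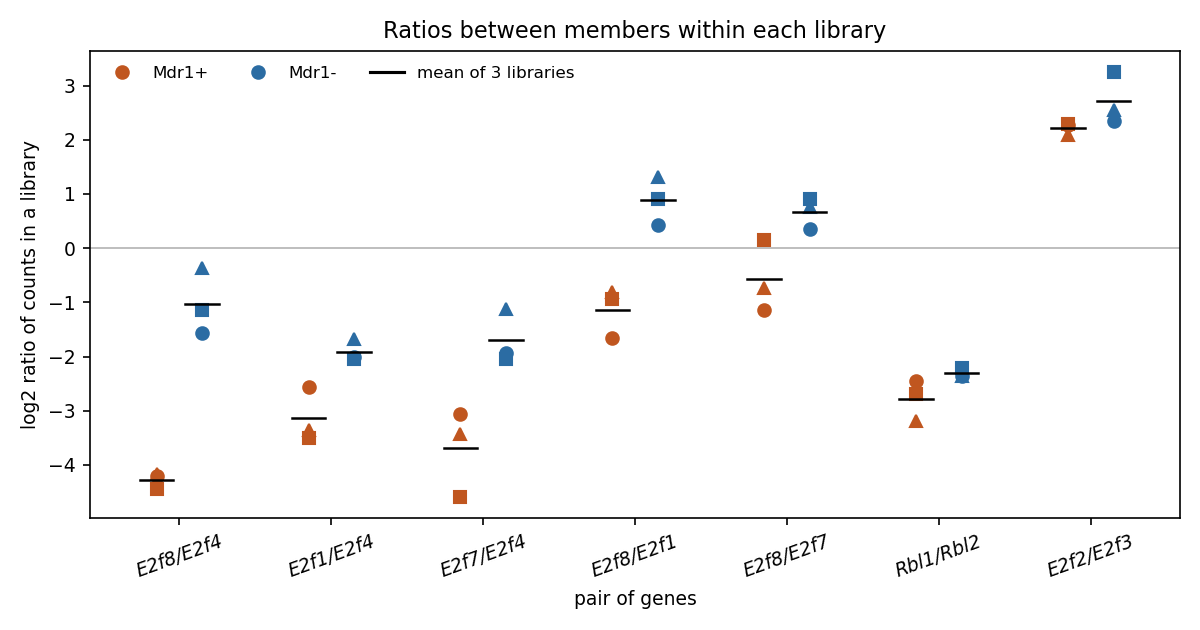
Log2 ratio of the counts of 2 family genes in the same library (y axis) for 7 gene pairs (x axis), with Mdr1+ libraries in orange on the left and Mdr1- libraries in blue on the right; circles, squares and triangles are replicates 1, 2 and 3 and bars are means. E2f8 to E2f4 shows the largest shift, with means of -4.27 in Mdr1+ and -1.02 in Mdr1- libraries.

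Levels were set side by side per kb of exon, with exon lengths from GENCODE, since the annotation used in counting is not given in the sources used here. Rbl2 had the highest level per length in both groups, with means of 127 CPM per kb in Mdr1+ and 130 CPM per kb in Mdr1- cells. In Mdr1+ cells E2f4 followed at 41.8 CPM per kb, then Rbl1 at 19.0 and E2f2 at 16.4, whose libraries overlapped. E2f5 at 9.22, E2f6 at 5.27, E2f3 at 3.12 and E2f1 at 2.95 CPM per kb came next, and each overlapped its neighbour in this order except that E2f5 lay apart from E2f2. E2f8 at 1.08 and E2f7 at 0.834 CPM per kb were lowest, apart from E2f1 and overlapping each other. In Mdr1- cells E2f2 at 42.0 and E2f4 at 41.0 CPM per kb overlapped, Rbl1 followed at 26.5, and E2f8 at 10.8 CPM per kb lay in 5th place, overlapping E2f6 at 7.70. E2f1 at 6.87, E2f5 at 6.00 and E2f3 at 5.61 CPM per kb each overlapped their neighbours, and E2f7 at 3.23 was lowest and apart. Taking the length of the longest coding transcript in place of all exons swapped E2f1 with E2f3 and E2f7 with E2f8 in the order in Mdr1+ cells, and E2f1 with E2f6 in Mdr1- cells.

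**Figure D4:**
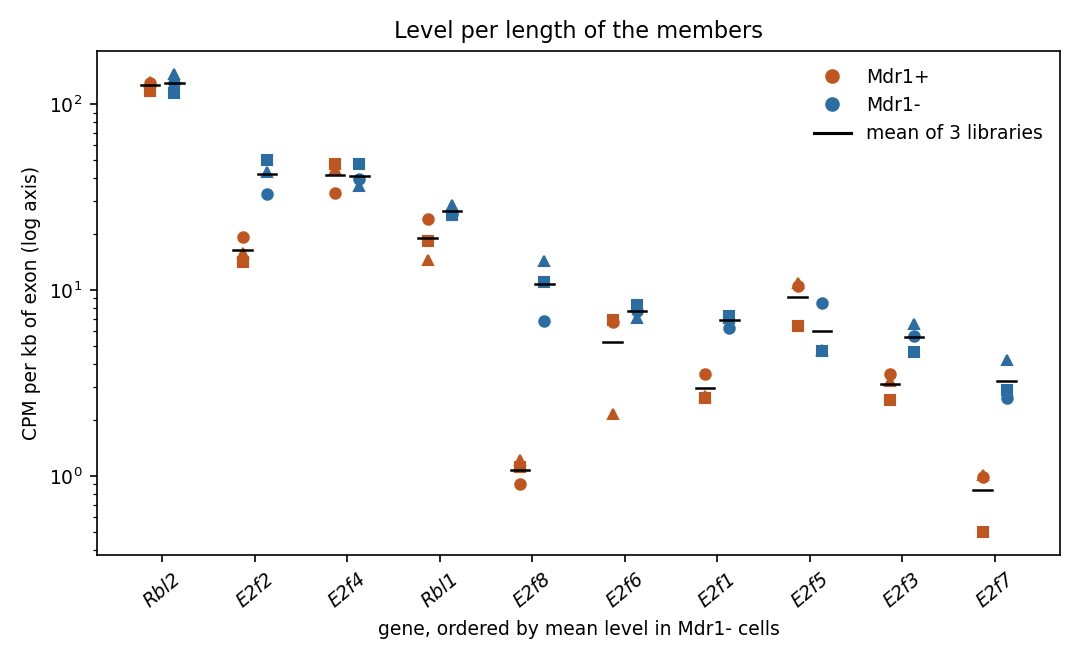
CPM per kb of exon (y axis, log scale) of the 10 genes (x axis, in the order of their mean in Mdr1- cells), with Mdr1+ libraries in orange on the left and Mdr1- libraries in blue on the right of each gene; circles, squares and triangles are replicates 1, 2 and 3. E2f8 lies 5th in Mdr1- cells and 9th in Mdr1+ cells.

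Among the DP partners, the MuvB core with its activators and the partners of E2f6, only the MuvB list held genes that passed in edgeR's fit by group. Of the DP partner genes, Tfdp1 stood at 10.8 ± 0.5 CPM in the Mdr1+ group and at 21.2 ± 2.2 CPM in the Mdr1- group (SD over 3 libraries), with no overlap. Its log2 fold change of -0.97 ± 0.25 did not pass (adjusted p = 0.102 in edgeR) and passed with the block (adjusted p = 0.0228). For Tfdp2 the value was -0.59 on the log2 scale (adjusted p = 0.332 in edgeR, 0.0578 with the block). Where 1.95% of all tested genes fell, 2 of 7 tested genes of the MuvB core and its activators fell. These were Mybl2, which encodes B-Myb, the partner of MuvB in dividing cells, with 2.68 ± 1.97 CPM in the Mdr1+ group and 27.7 ± 9.0 CPM in the Mdr1- group (adjusted p = 0.0137 in edgeR), and Foxm1, a transcription factor of mitotic genes, with 12.4 ± 4.8 and, in Mdr1- cells, 52.4 ± 16.2 CPM (adjusted p = 0.0188). The core genes Lin9 (log2 fold change -0.38), Lin37 (0.09), Lin52 (-0.06), Lin54 (-0.30) and Rbbp4 (-0.37) did not pass. With the block 3 of the 7 fell, where 6.57% of all tested genes did. Rbbp4, a histone-binding subunit, was among them (adjusted p = 0.0224 in edgeR). The count of 2 was 1 without Mdr1+ replicate 1 and 0 without Mdr1- replicate 3 or without replicate 1, 2 or 3 of both groups. Of 13 tested partners of E2f6 in its Polycomb-type complex 0 passed in edgeR or DESeq2, and 1 had an unadjusted p under 0.05 in each. Their median log2 fold change was 0.11. With the block 1 of the 13, Cbx1, fell, near the share of 6.57% over all tested genes.

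Among the cyclins and kinases that act on pocket proteins, members moved in opposite directions. Of 7 tested genes 1 rose and 1 fell, where over all tested genes 0.275% rose and 1.95% fell. Ccnd2, a D-type cyclin, stood at 341 ± 37.1 CPM in the Mdr1+ group and at 173 ± 15.5 CPM in the Mdr1- group (SD over 3 libraries) and rose by a log2 fold change of 0.98 ± 0.17 (adjusted p = 0.0191 in edgeR). Cdk2, the kinase of cyclins E and A, had 45.3 ± 8.5 and, in Mdr1- cells, 88.8 ± 8.3 CPM, and fell, with an edgeR adjusted p of 0.0389 and a log2 fold change of -0.98 ± 0.20. The other 5 tested genes of this list, Ccnd3, Cdk4, Cdk6, Ccne1 and Ccne2, did not pass. With the block 3 of the 7 fell and 1 rose, where 6.57% and 5.81% of all tested genes did. Ccne1 and Ccne2, the E-type cyclins, were among those that fell (adjusted p = 0.0475 and 0.0172 in edgeR). The Cdk2 call held without Mdr1+ replicate 1 and was lost without any other single library, and the Ccnd2 call was lost without Mdr1+ replicate 3, Mdr1- replicate 2 or Mdr1- replicate 3; both were lost without replicate 1, 2 or 3 of both groups. Of 5 tested inhibitors of these kinases 0 passed in edgeR or DESeq2 and 1 had an unadjusted p under 0.05 in each. With the block 1 of the 5, Cdkn1b, which encodes p27, rose (log2 fold change 0.44, adjusted p = 0.0216 in edgeR), against 5.81% of all tested genes. For Cdkn2c, an inhibitor of Cdk4 and Cdk6, the value was -1.16 on the log2 scale, with an edgeR adjusted p of 0.353.

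The genes that E2F and MuvB complexes are known to regulate were lower in Mdr1+ cells in most cases. Of 40 tested textbook E2F targets of G1/S 27 fell and 0 rose (35 fell with the block), with a median log2 fold change of -1.43. Of 26 tested MuvB targets of G2/M 22 fell and 0 rose (25 fell with the block), with a median of -2.53. Over all tested genes 1.95% fell and 0.275% rose, and with the block 6.57% fell and 5.81% rose. Both target lists were drawn up with earlier results of these data known, and Ccne1, Ccne2 and Mybl2 also stand in lists above. Among G1/S targets Ccna2 (cyclin A2), Mcm10 (a replication initiation factor), Mybl2 and Tk1 (thymidine kinase) had the largest falls, with log2 fold changes of -3.23, -3.23, -3.11 and -3.02. The G1/S genes that did not pass even with the block were Cdt1 (-0.08), Slbp (-0.25), Msh6 (-0.40), Orc6 (-0.43) and Pcna (-0.50), named after their values were seen. Among G2/M targets Ccnb1 (-3.74), Ube2c (-3.28), Plk1 (-3.10) and Bub1 (-3.10), genes of mitotic entry, a mitotic ubiquitin-conjugating enzyme, a mitotic kinase and the spindle checkpoint, had the largest falls. Ccnb1 rests on 7, 6 and 0 counts in Mdr1+ and 41, 98 and 46 counts in Mdr1- libraries. The count of 27 was 13 without Mdr1- replicate 3, 17, 8 and 0 without replicates 1, 2 and 3 of both groups, and the count of 22 was 9 and 0 without replicates 2 and 3 of both groups.

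**Figure D5:**
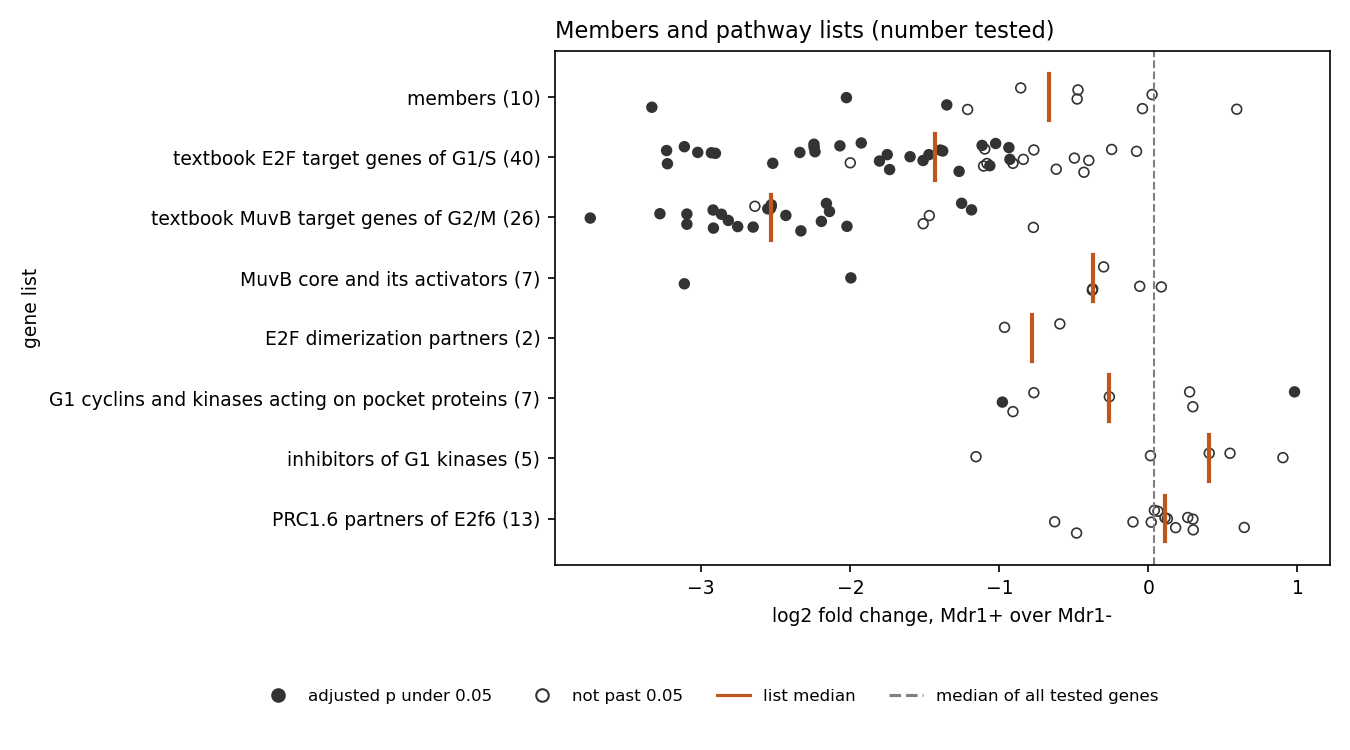
Log2 fold change of Mdr1+ over Mdr1- (x axis) of the 10 family genes and of each gene list (y axis, number tested in parentheses); points are genes, filled where the adjusted p is under 0.05, orange bars are medians and the dashed line is the median of all tested genes. The G1/S and G2/M targets lie at medians of -1.43 and -2.53, between E2f4 at 0.02 and E2f8 at -3.33.

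Set against the median of the G1/S targets within the same replicate number, the family ranged from below to above it, with no clear break between most genes. The log2 ratio of E2f8 minus that median was -1.69, -1.72 and -1.86 in numbers 1, 2 and 3, and that of E2f7 was -0.17, -0.95 and -0.34. E2f1 was above it by 0.41, 0.13 and 0.31, and E2f2 by 0.47 and 0.25 in numbers 1 and 3 with -0.22 in number 2. E2f3 lay above it by 0.54, 0.74 and 0.71, and Rbl1 by 1.14, 1.13 and 0.73. E2f6 lay above it by 1.04 and 1.32 in numbers 1 and 2, with -0.02 in number 3. E2f4 lay above it by 0.97, 1.59 and 2.02, Rbl2 by 1.23, 1.62 and 1.57, and E2f5 by 1.52, 2.03 and 2.90. Against the G2/M targets, the difference was -1.07, -0.15 and -1.21 for E2f8 and 0.45, 0.62 and 0.31 for E2f7. These differences are a description, with no test.

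The genes whose log2 CPM followed a family member most closely over the 6 libraries were found among 9723 genes whose average log2 CPM reached 2. For E2f1 they were Top2a, Parpbp and Cdc45 (Pearson r = 0.997, 0.997 and 0.996), which encode a topoisomerase, a regulator of recombination and a replication helicase subunit. For E2f8 they were Rfc1, Nup205 and Dna2 (r = 0.998, 0.996 and 0.995), which encode a clamp loader subunit, a nuclear pore protein and a replication nuclease. Their log2 fold changes were -0.45, -0.44 and -2.41, so the likeness in pattern came with sizes that differed. For Rbl2 they were Tmem184c, Pdcd6ip and Tmed10 (r = 0.983, 0.982 and 0.977). The 6 libraries fall into 2 groups and share replicate numbers, so these values are a description. The 99th percentile of r over all candidates was itself 0.964 for E2f1 and 0.966 for E2f8.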

How the data were processed

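RNA was measured by RNA-seq in 3 Mdr1+ and 3 Mdr1- libraries. The authors deposited raw counts per gene; reads were aligned with TopHat to mm9 and counted with HTSeq, and DESeq2 is also named, per the submitters' processing notes, with versions not given in the sources used here. Totals in genes were 2220691 to 20771456, so 3 counts correspond to 0.144 to 1.35 CPM. Rows naming no gene stayed out of all totals; in replicates 1 and 2 they held 67.0% to 73.2% (not uniquely aligned) and 13.2% to 19.7% (no feature) of the column.

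In both replicate 3 columns the counts were reassigned to gene names sorted without regard to case, which moved 19002 of 23366 names. Spearman's rho with the other libraries was 0.424 to 0.460 as deposited, and after reassignment 0.926 to 0.936 for Mdr1+ and 0.958 to 0.962 for Mdr1- replicate 3, against 0.957 to 0.969 among replicates 1 and 2.

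Counts were tested with edgeR 4.0.16 in R 4.3.3 (TMM scaling, filterByExpr, robust quasi-likelihood F test by group, Benjamini-Hochberg adjustment over 10897 genes, threshold 0.05), after a test on simulated data. DESeq2 1.42.0 and the other alternatives are described in the closing section. Single values used the two-sided exact permutation test over 20 splits. In the fit with the replicate block and the ratios within numbers, replicate numbers were taken to pair the libraries. Same-numbered libraries deviated together from their group means (correlations 0.41, 0.57 and 0.21), against -0.36 to 0.01 between Mdr1+ and Mdr1- libraries of different number. Centring on the group means ties these values to each other, and the labels do not state a pairing. The main test by group did not use it.

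The genes and lists were chosen with earlier results of these data known. All 10 family genes are named. In the target lists, the rule was to name the 4 with the largest fold change among those past the threshold whose average log2 CPM reached 2. The G1/S genes that did not pass even with the block are named outside this rule, after their values were seen. Promoter sequences are RefSeq's on GRCm38.p6 and no gene coordinates of the files' build are given. A planned comparison of protein sequences was not run.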

Additional observations from a re-analysis of the deposited data

How the results depend on the processing

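The 30 genes higher and 212 lower in Mdr1+ cells became 633 and 716 with the replicate block, 103 and 381 with DESeq2's Wald test, and 0 and 0 with the replicate 3 columns as deposited; without a filter on low counts 52 were higher. Leaving out libraries gave 0 to 15 higher and 0 to 196 lower genes. With the replicate block and without replicate 1, 2 or 3, a fit added after seeing the data, they were 436, 259 and 1131 higher and 694, 392 and 1347 lower. The 3 family genes that fell were 5 with the replicate block, 0 to 3 with libraries left out, 0 as deposited, and 5, 3 and 4 with the block and without replicate 1, 2 and 3; E2f7 and E2f8 passed in all 3 of these. E2f8 passed in 15 of 16 alternatives other than the deposited order, E2f2 in 11, E2f7 in 10, E2f1 in 4, E2f3 in 2 and Rbl1 in 1; E2f4, E2f5, E2f6 and Rbl2 passed in 0. Mdr1+ replicate 3, with 10 counts of E2f8 and 11 of E2f6, limits the precision for low genes.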
